A study of Ostrinia furnacalis with 30 samples.

Results

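Aminopeptidases, carboxypeptidases and dipeptidases are exopeptidases, enzymes that trim amino acids from the ends of peptides. They were followed here in the Asian corn borer, *Ostrinia furnacalis*, a moth whose larvae bore into maize. The members were all annotated gene models whose description names an aminopeptidase, a carboxypeptidase or a dipeptidase, 87 of 17284 annotated models and of 20852 models in all. By name, 39 of them belong to the families that digest peptides in insect guts: 12 of the aminopeptidase N type and 27 gut-type metallocarboxypeptidases (types A, B and O and zinc carboxypeptidases). The other 48 were 11 processing and tubulin metallocarboxypeptidases, 11 serine carboxypeptidases, 6 leucyl and aspartyl aminopeptidases, 6 proline-specific enzymes, 5 dipeptidases, 3 methionine aminopeptidases, 3 further M1 aminopeptidases and 3 that fit none of these groups. The family names were taken from the descriptions and not from enzyme activity.

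All insects were wild type and were reared on an artificial diet as larvae. RNA was sequenced from midgut, hemolymph, fat body and silk gland of 3rd instar larvae, and from whole embryos (labelled as egg), 1st, 3rd and 5th instar larvae, pupae and adults, with 3 libraries per tissue or stage and 30 in all. Each library came from several pooled animals. Pupal and adult pools mixed females and males, so that neither sex nor single animals can be told apart, and the p-values measure the spread between pools. Levels are FPKM, fragments scaled to gene length and to library size, and can be compared between genes. Changes are log2 fold changes on the log2(FPKM + 1) scale, which understates the change of weakly expressed genes, tested with limma. A call, higher or lower, needed a change of 1 or more on this scale in either direction and an adjusted p under 0.05, with the adjustment over all genes tested.

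The libraries held 10908503 to 17774377 fragments, as recovered from the values. The deposited FPKM rest on an effective library size of 0.447 to 2.42 times these fragments, and scaling by the fragments themselves moved the median change of all genes to between -0.96 and 0.80, so that calls under this scaling are given where the balance of higher and lower members depended on it. Of the 87 members, 81 reached a mean of 1 FPKM in at least 1 group. Each tissue label fitted the sum of its marker genes: the summed level of 45 midgut markers (alkaline trypsins, chymotrypsins and peritrophins) was 53427 to 81641 FPKM in midgut, 2.18 to 15.5 FPKM in hemolymph, 107 to 447 FPKM in fat body and 1301 to 1907 FPKM in silk gland. Of these, 27 of 29 tested were higher in midgut than in silk gland and 1 lower. Hemolymph markers (hemocytin, phenoloxidase subunits) summed to 3613 to 6148 FPKM in hemolymph and at most 14.5 FPKM in other tissues. For fat body markers (arylphorins, apolipophorins) the range was 134875 to 182921 FPKM, and at most 604 FPKM in other tissues. For silk gland markers (fibroins, sericins, seroins) it was 146392 to 177490 FPKM, and at most 137 FPKM in other tissues. The midgut markers set replicate 2 apart among the whole 3rd instar larvae, with 11472 FPKM against 456 and 443 FPKM in replicates 1 and 3. Replicate 2 of the 1st instar likewise had 4263 FPKM, against 888 and 460 FPKM in replicates 1 and 3. In bulk RNA, fewer cells of a type and less RNA per cell cannot be told apart.

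Aminopeptidase N is anchored in the brush border of the midgut, where it removes single residues from the amino end of peptides. In moths it is also known as a receptor of the Cry toxins of *Bacillus thuringiensis*. Metallocarboxypeptidases of the A and B types work from the other end, and are secreted to finish what trypsins and chymotrypsins leave, type B at basic and type A at other residues. Relatives outside the gut have other tasks: carboxypeptidases D and E mature peptide hormones, cytosolic carboxypeptidases remove glutamates from tubulin, methionine aminopeptidases remove the initiator methionine of new proteins, and serine carboxypeptidases are mostly enzymes of lysosomes or secretions.

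The digestive members as a sum were highest in midgut. Their summed level was 6704, 7573 and 6456 FPKM in the 3 midgut libraries, against 19.5, 23.9 and 21.6 FPKM in hemolymph, 69.4, 69.2 and 42.3 FPKM in fat body and 65.3, 84.1 and 67.6 FPKM in silk gland. No other tissue library came near a midgut library. Among the 27 digestive members with a mean of at least 1 FPKM in some tissue, midgut had the highest mean for 22, silk gland for 4 and hemolymph for 1. The 48 other members showed no such lead. Their summed level was 982, 1262 and 1032 FPKM in midgut, against 954, 837 and 922 FPKM in hemolymph, 1239, 1004 and 918 FPKM in fat body and 829, 711 and 676 FPKM in silk gland.

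**Figure D1:**
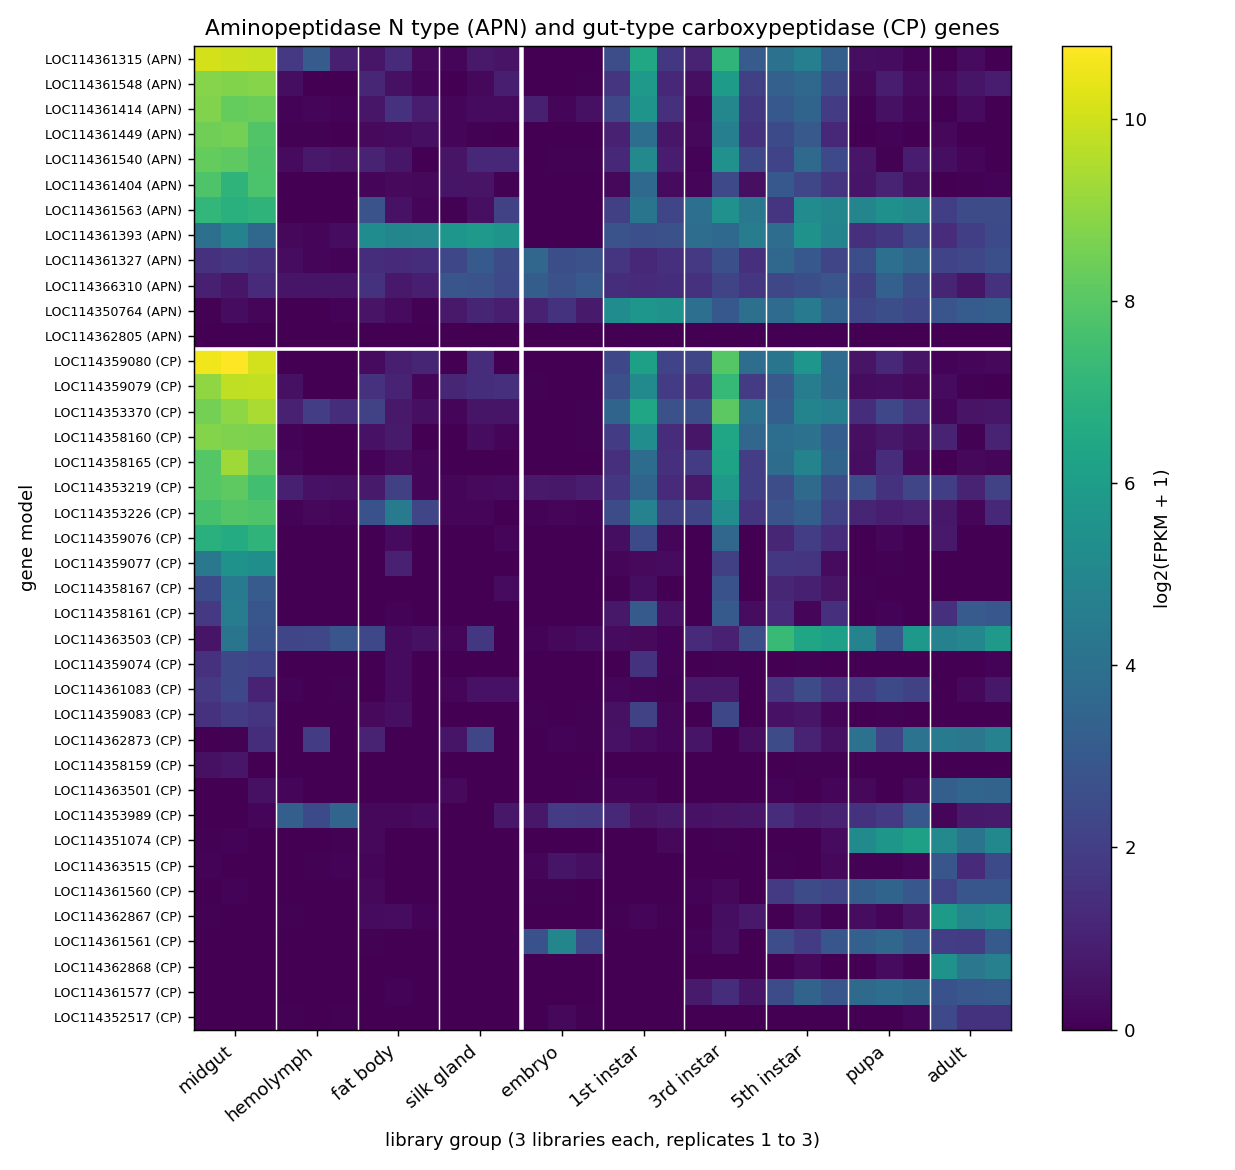
Levels of all 39 digestive members in the 30 libraries, as log2(FPKM + 1) by colour, with 1 row per gene model, the 12 of the aminopeptidase N type above the 27 gut-type carboxypeptidases and each ordered by mean midgut level. The upper rows of both blocks are bright in the 3 midgut libraries and in replicate 2 of the 1st and 3rd instars, while the lowest carboxypeptidase rows are bright in pupae and adults instead.

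Between midgut and hemolymph, 33 of the 57 members tested were higher in midgut and 13 lower, where 25.3% of all genes tested were higher and 17.9% lower. The digestive members accounted for 23 of the higher calls and 1 of the lower ones among 25 tested, and their median log2 fold change was 7.21, against 0.03 for all genes tested. Against fat body, 29 of 58 members were higher in midgut and 8 lower, with a background of 18.3% higher and 16.0% lower. Of these, 21 of 24 digestive members were higher and 0 lower (0 also at an unadjusted p under 0.05 and with limma-voom), with a median of 6.81 against 0.04 for all genes tested. Against silk gland, 27 of 60 members were higher in midgut and 11 lower, with a background of 20.8% and 16.6%. The digestive members gave 21 higher and 3 lower among 25, with a median of 7.03 against 0.03 for all genes tested. Under scaling by the recovered fragments, 35 members were higher than in silk gland and 6 lower.

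Many digestive members could enter these tests only through their midgut level, and such a member had to differ. Of the 25 tested against hemolymph, 21 reached 1 FPKM in midgut libraries only. For fat body this held for 11 of 24 and for silk gland for 17 of 25. Of the members that reached 1 FPKM in both tissues, 2 of 3 were higher in midgut than in hemolymph, 10 of 13 higher than in fat body, and 4 of 8 higher and 3 of 8 lower than in silk gland. Of the 24 digestive members tested against all 3 tissues, 21 were higher in midgut each time, where 12.3% of all genes tested so were higher and 2.03% lower each time. Among 30 other members tested so, 4 were higher each time and 4 lower each time.

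**Figure D2:**
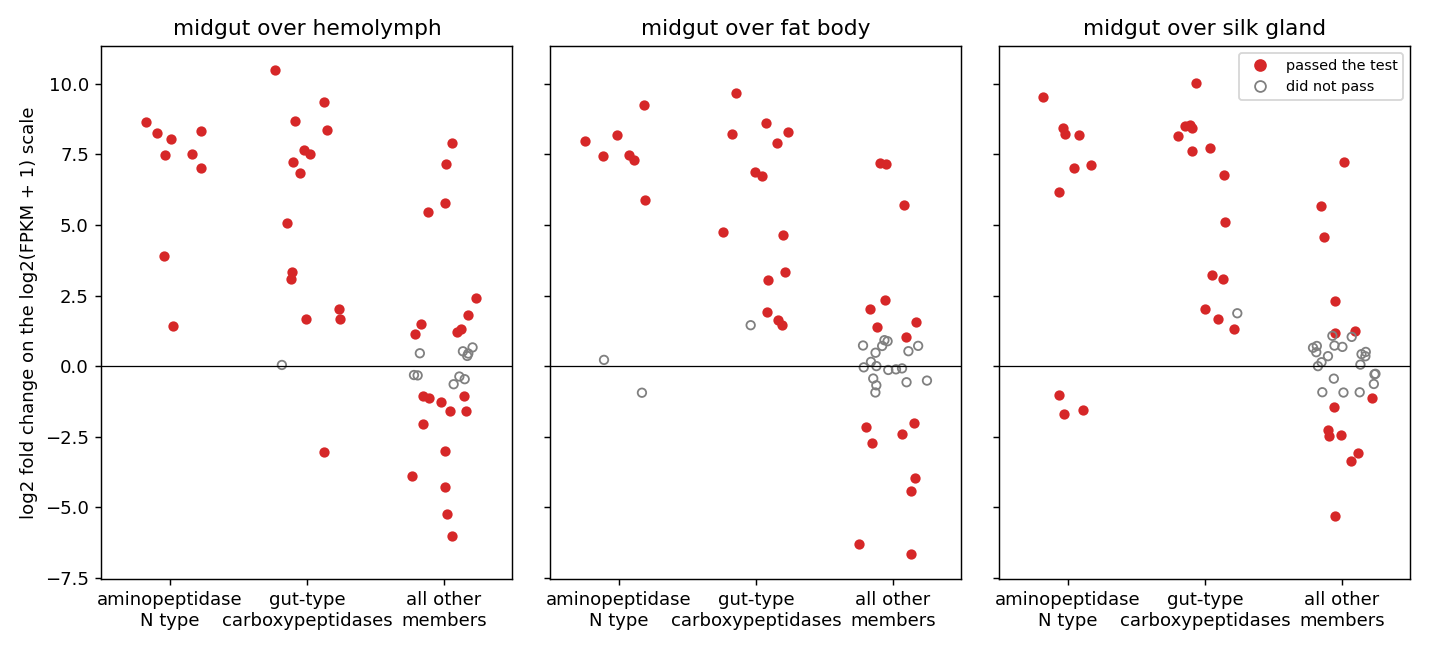
Log2 fold change on the log2(FPKM + 1) scale of each member tested, midgut over hemolymph, fat body and silk gland, split into the aminopeptidase N type, the gut-type carboxypeptidases and all other members (1 point per gene, spread sideways for visibility). Filled points passed the limma test. The digestive families lie mostly high above 0, and the other members spread to both sides of it.

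The aminopeptidase N type is concentrated at 1 place in the genome. On scaffold NW_021130612.1 of assembly ASM419383v1, 8 of its 12 gene models stand between positions 580526 and 735950, with 4 on each strand and only 2 other annotated genes between them. Of these neighbours, 7 were higher in midgut than in all 3 other tissues. Tandem copies may share reads, and the sources used here do not say how such reads were counted.

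LOC114361315, at the start of the row, is described as membrane alanyl aminopeptidase-like, another name of aminopeptidase N. It had 1109, 1020.5 and 938 FPKM in midgut, against 2.51, 7.66 and 0.954 FPKM in hemolymph, 0.566, 1.41 and 0.227 FPKM in fat body and 0.104, 0.658 and 0.472 FPKM in silk gland. No library of another tissue overlapped with midgut, and the change relative to silk gland (log2 fold change 9.52, SE 0.20, adjusted p 7.53e-08) was the largest of the aminopeptidase N type in that comparison. LOC114361548 and LOC114361414 came next in midgut level. LOC114361548 had 450.0, 426 and 454 FPKM in midgut, against 0, 0.166 and 0.863 FPKM in silk gland (log2 fold change 8.42, SE 0.25, adjusted p 2.75e-07). LOC114361414, described as aminopeptidase N-like, had 430.1, 303 and 331 FPKM in midgut, against 0.574, 1.88 and 0.816 FPKM in fat body (log2 fold change 7.45, SE 0.28, adjusted p 1.33e-06). Their 3 midgut libraries varied far less among themselves than they differed from any other tissue.

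LOC114361449 and LOC114361540, side by side on the minus strand, repeated this profile at a lower level. LOC114361449 had 347, 372 and 234 FPKM in midgut and at most 0.346 FPKM in the other tissues. LOC114361540 had 303, 274 and 217 FPKM in midgut, against 0.501, 1.32 and 1.37 FPKM in silk gland. LOC114361404 was listed at 0 in all 3 hemolymph libraries and had 224, 129.8 and 211 FPKM in midgut. LOC114361563 also was listed at 0 in hemolymph, with 139.9, 114 and 131 FPKM in midgut, against 5.78, 0.425 and 0.0966 FPKM in fat body and 0.0589, 0.344 and 3.21 FPKM in silk gland. Its single higher fat body and silk gland libraries stayed well under every midgut library. For genes listed at 0 in a tissue, the fitted change depends on the pseudocount.

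LOC114361393 was the exception in the row. This aminopeptidase N-like gene, between LOC114361563 and LOC114361404, had 14.7, 27.6 and 11.3 FPKM in midgut, against 37.2, 30.5 and 31.4 FPKM in fat body and 50.4, 55.4 and 47.6 FPKM in silk gland. Fat body and silk gland lay above every midgut library. It was lower in midgut than in silk gland (log2 fold change -1.56, SE 0.31, adjusted p 0.00486) and did not pass the test against fat body (log2 fold change -0.94, SE 0.33, adjusted p 0.0533). Scaling by the recovered fragments ended the call against silk gland (-0.61, adjusted p 0.0564). Hemolymph, with 0.163, 0.139 and 0.292 FPKM, was lowest, and midgut was higher than it (log2 fold change 3.88, SE 0.31, adjusted p 2.08e-05). In fat body and silk gland this gene supplied 54.8% and 70.7% of the summed digestive level.

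**Figure D3:**
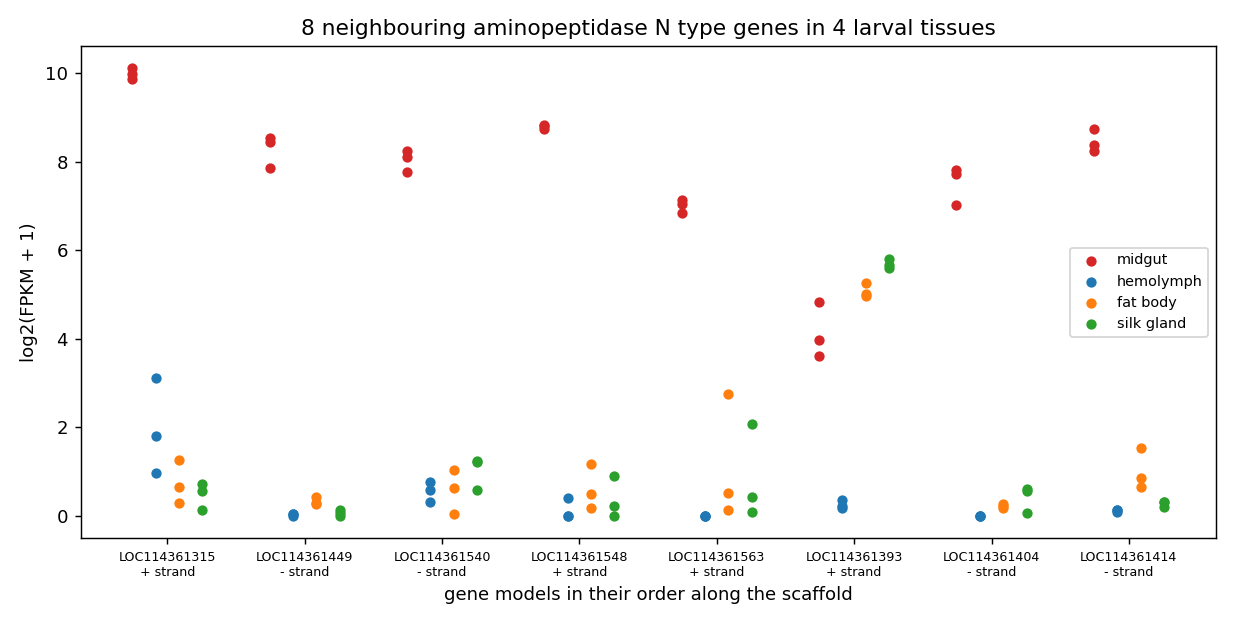
Levels of the 8 neighbouring aminopeptidase N type genes in their order along the scaffold, as log2(FPKM + 1), with 3 points per tissue (midgut, hemolymph, fat body and silk gland from left to right within each gene). Midgut lies above the other tissues for 7 genes, and for LOC114361393 silk gland and fat body lie above midgut.

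None of the 4 aminopeptidase N type genes elsewhere in the genome was higher in midgut than in all 3 other tissues. LOC114361327 had 1.93, 2.3 and 1.9 FPKM in midgut, against 4.02, 7.45 and 4.46 FPKM in silk gland (log2 fold change -1.01, SE 0.26, adjusted p 0.0163), and LOC114366310 had 0.956, 0.594 and 1.48 FPKM in midgut, against 6.27, 5.89 and 4.16 FPKM in silk gland (log2 fold change -1.69, SE 0.26, adjusted p 0.00156). Both calls ended under scaling by the recovered fragments (LOC114361327 at -0.25, adjusted p 0.340, and LOC114366310 at -0.87, under the fold limit). That of LOC114361327 was also lost with medians of ratios (-0.88), without silk gland replicate 2 (-0.78) and without midgut replicates 1 or 3 (adjusted p 0.0647 and 0.0609). Relative to hemolymph, LOC114361327 was higher in midgut (log2 fold change 1.40, SE 0.17, adjusted p 1.98e-04). LOC114350764, the only model described as aminopeptidase N without the suffix, had at most 1.17 FPKM in any tissue library, and its levels are given with the stages. LOC114362805 had no fragment in any of the 30 libraries.

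The gut-type carboxypeptidases formed 2 further midgut rows. On NW_021134470.1, 6 models described as carboxypeptidase B-like lie between 83931 and 162078, and all 6 were higher in midgut than in all 3 other tissues. On NW_021133984.1, 5 zinc carboxypeptidase-like models lie on the plus strand between 270600 and 360999. Of the 4 that could be tested against all 3 tissues, all 4 were higher in midgut. These 4 stayed under 1 FPKM in every library of the other tissues. They entered the tests only through their midgut level and had to differ.

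LOC114359080 on NW_021134470.1 had the highest midgut level of all members. It reached 1509.6, 1781 and 1077 FPKM in midgut and was listed at 0 in the 3 hemolymph libraries, with 0.259, 0.898 and 1.18 FPKM in fat body and 0, 1.57 and 0 FPKM in silk gland (log2 fold change 10.02, SE 0.40, adjusted p 1.07e-06 relative to silk gland). It alone made up 21.1% of the summed digestive level in midgut. Its neighbour LOC114359079, on the opposite strand, followed with 508, 869 and 885 FPKM in midgut, against 1.22, 1.67 and 1.85 FPKM in silk gland (log2 fold change 8.16, SE 0.25, adjusted p 3.22e-07). Within the same row the level dropped widely. LOC114359076 had 116, 98.5 and 129 FPKM and LOC114359077 19.3, 46.3 and 40.2 FPKM in midgut, while LOC114359074 had 1.92, 4.09 and 3.56 FPKM and LOC114359083 1.91, 2.74 and 2.05 FPKM. These last 2 genes stayed at or under 0.366 FPKM in the other tissues and entered the tests only through their midgut level.

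The zinc carboxypeptidase row showed the same spread. LOC114358160 had 442, 415 and 402 FPKM in midgut, against 0.445, 0.694 and 0 FPKM in fat body (log2 fold change 8.29, SE 0.24, adjusted p 6.62e-07). LOC114358165 had 249, 603 and 276 FPKM in midgut and no fragment in silk gland. LOC114358167 had 4.43, 21.5 and 7.49 FPKM and LOC114358161 2.45, 22.7 and 6.38 FPKM in midgut, both with replicate 2 highest. LOC114358159, first in the row, had 0.389, 0.591 and 0 FPKM in midgut and was too low to test.

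Further carboxypeptidase B-like genes stood on other scaffolds. LOC114353370 had 376, 497 and 679 FPKM in midgut, against 0.993, 2.89 and 1.68 FPKM in hemolymph (log2 fold change 7.52, SE 0.30, adjusted p 3.85e-07). The pair LOC114353219 and LOC114353226 share a scaffold. LOC114353219 had 249.6, 276 and 184 FPKM in midgut, against 0.724, 3.07 and 0.123 FPKM in fat body (log2 fold change 6.88, SE 0.46, adjusted p 1.80e-05). LOC114353226 had 201, 242 and 225 FPKM in midgut, against 5.64, 21.6 and 3.78 FPKM in fat body (log2 fold change 4.64, SE 0.54, adjusted p 3.53e-04). Fat body replicate 2 was the highest for both of them and also had the highest midgut marker sum of the fat body libraries, 447 FPKM against 249 and 107 FPKM, whose part in these values was not tested.

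Only LOC114353989, a carboxypeptidase A2-like gene, ran the other way. It had 0.0229, 0 and 0.106 FPKM in midgut, against 8.7, 4.42 and 10.5 FPKM in hemolymph (log2 fold change -3.02, SE 0.29, adjusted p 5.94e-05), and at most 0.599 FPKM in fat body and silk gland. Among the digestive members it was the only one called lower in midgut than in hemolymph. LOC114363503, carboxypeptidase B-like, had 0.507, 17.5 and 5.53 FPKM in midgut, against 3.72, 3.93 and 6.17 FPKM in hemolymph, and passed none of the 3 tests.

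The 48 other members split over the tissues. Of the 40 with at least 1 FPKM in some tissue, midgut had the highest mean for 13, fat body for 10, hemolymph for 9 and silk gland for 8. Of those tested, 10 of 32 were higher in midgut than in hemolymph and 12 lower, 8 of 34 were higher than in fat body and 8 lower, and 6 of 35 were higher than in silk gland and 8 lower. Of all genes tested, 25.3% were higher than in hemolymph and 17.9% lower. The shares were 18.3% and 16.0% against fat body and 20.8% and 16.6% against silk gland, so that several of these counts are near the background. Of those that reached 1 FPKM in both tissues, 5 of 25 were higher and 10 lower than in hemolymph, 6 of 30 higher and 6 lower than in fat body, and 5 of 32 higher and 6 lower than in silk gland.

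Of the 4 that were higher in midgut than in all 3 tissues, only LOC114354209 was named after its values were seen. LOC114354209 is a retinoid-inducible serine carboxypeptidase-like gene, of a family known in mammals as lysosomal. It had 250.3, 347 and 247 FPKM in midgut, against 0.851, 1.04 and 0.752 FPKM in silk gland (log2 fold change 7.22, SE 0.20, adjusted p 1.76e-07), the highest level of the 48 in midgut. LOC114354978, carboxypeptidase Q-like, had 132, 169 and 145 FPKM in midgut, against 41.8, 29.4 and 19.5 FPKM in silk gland (log2 fold change 2.32, SE 0.28, adjusted p 3.87e-04), and was at most 0.16 FPKM in hemolymph and fat body. In mammals carboxypeptidase Q is a secreted and lysosomal enzyme that splits dipeptides. LOC114353253, a xaa-Pro aminopeptidase ApepP-like gene for removing a residue that precedes proline, had 61.5, 96.3 and 70 FPKM in midgut, against 1.59, 4.09 and 1.44 FPKM in silk gland (log2 fold change 4.57, SE 0.33, adjusted p 2.53e-05). LOC114353218, named after a leucyl aminopeptidase of *Caenorhabditis elegans* (W07G4.4), had 42.9, 55.1 and 50.7 FPKM in midgut, against 4.62, 7.19 and 19.8 FPKM in fat body (log2 fold change 2.35, SE 0.46, adjusted p 0.00499), and was listed at 0 in silk gland.

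Neighbours could part here as well. LOC114354977, the second carboxypeptidase Q-like gene, lies on the same scaffold as LOC114354978 and was highest in silk gland. It had 33.1, 35.7 and 25 FPKM in midgut, against 167, 169 and 122 FPKM in silk gland (log2 fold change -2.25, SE 0.21, adjusted p 1.03e-04). LOC114353229, the ApepP-like neighbour of LOC114353253, had 22.9, 30.1 and 30 FPKM in midgut, against 16.9, 19.5 and 14.8 FPKM in hemolymph, 9.67, 21.7 and 9.83 FPKM in fat body and 25.8, 31.2 and 25.7 FPKM in silk gland. It was higher in midgut than in fat body (log2 fold change 1.05, SE 0.33, adjusted p 0.0395) and passed neither other test. The call was lost in 6 of the alternatives, namely no filter (adjusted p 0.0622), any midgut replicate left out (1.17, 0.98 and 0.98, adjusted p 0.0710, 0.116 and 0.118 without replicates 1, 2 and 3), and fat body replicates 1 or 3 left out (0.86 and 0.87).

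Of the serine carboxypeptidases tested, 5 of 6 were lower in midgut than in hemolymph and 1 higher, 2 of 5 lower than in fat body and 1 higher, and 2 of 6 lower than in silk gland and 1 higher. The shares of all genes tested that were lower were 17.9%, 16.0% and 16.6% in this order, and 25.3%, 18.3% and 20.8% were higher. Of the lower calls against hemolymph, that of LOC114360785 was lost without the filter (adjusted p 0.0722) and with limma-voom (adjusted p 0.0501). It was also lost without hemolymph replicates 1 or 2 and without midgut replicates 1 or 3. LOC114364138 is described as lysosomal Pro-X carboxypeptidase, an enzyme that cuts behind proline. It had 1.5, 4.56 and 1.09 FPKM in midgut, against 447, 261 and 257 FPKM in fat body (log2 fold change -6.66, SE 0.41, adjusted p 1.22e-05) and 124, 105 and 119 FPKM in hemolymph (log2 fold change -5.25, SE 0.35, adjusted p 7.00e-06). It overlaps another annotated gene on its strand, and reads from the shared part cannot be told apart. LOC114360790, venom serine carboxypeptidase, had 9.55, 16.5 and 7.67 FPKM in midgut, against 221, 209 and 125 FPKM in fat body (log2 fold change -3.95, SE 0.34, adjusted p 7.08e-05) and 81.6, 111 and 91.8 FPKM in hemolymph. Both genes were thus lowest or near lowest in midgut.

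LOC114349635, venom serine carboxypeptidase-like, had 0.513, 0.741 and 0.298 FPKM in midgut, against 92.4, 77.4 and 126 FPKM in hemolymph (log2 fold change -6.02, SE 0.22, adjusted p 2.61e-07). LOC114360426, retinoid-inducible serine carboxypeptidase-like, was also a hemolymph gene, with 1.21, 1.21 and 1.28 FPKM in midgut, against 45.5, 37.1 and 44.2 FPKM in hemolymph (log2 fold change -4.27, SE 0.16, adjusted p 2.72e-07). In both, every hemolymph library lay above every library of the 3 other tissues. LOC114349624, vitellogenic carboxypeptidase-like, was a silk gland gene instead, with 0, 0.142 and 0.18 FPKM in midgut, against 81.5, 16.1 and 56.9 FPKM in silk gland (log2 fold change -5.30, SE 0.55, adjusted p 1.78e-04). The name comes from a mosquito enzyme that is stored in eggs.

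Of the processing and tubulin carboxypeptidases tested, 4 of 7 were lower in midgut than in hemolymph and 1 higher, 4 of 7 lower than in fat body and 1 higher, and 4 of 8 lower than in silk gland, where the other 4 did not pass the test. The shares of all genes tested that were lower were 17.9%, 16.0% and 16.6% in this order, and 25.3%, 18.3% and 20.8% were higher. The 2 higher calls were those of LOC114353214, carboxypeptidase N subunit 2-like, over hemolymph (log2 fold change 1.80, SE 0.22, adjusted p 2.35e-04) and LOC114362897, carboxypeptidase E-like, over fat body (log2 fold change 1.40, SE 0.33, adjusted p 0.0112). The counts of this group thus include LOC114353214 and the related LOC114360639, both named after a subunit without a catalytic site. Carboxypeptidase D, known in Drosophila as silver, trims basic residues from peptides in the secretory pathway. LOC114360961 had 5.6, 6.64 and 5.47 FPKM in midgut, against 125, 84.2 and 101 FPKM in hemolymph (log2 fold change -3.90, SE 0.18, adjusted p 9.66e-07). LOC114352896, carboxypeptidase D-like, had 3.05, 3.78 and 4.64 FPKM in midgut, against 41.5, 37.4 and 38.9 FPKM in silk gland (log2 fold change -3.07, SE 0.19, adjusted p 1.19e-05), and LOC114360848, carboxypeptidase D, had 1.3, 0.791 and 1.28 FPKM in midgut, against 9.6, 10.6 and 20.3 FPKM in fat body (log2 fold change -2.71, SE 0.31, adjusted p 3.52e-04). Together with LOC114364138 and LOC114350973, LOC114352896 and LOC114360848 were the 4 members lower in midgut than in all 3 tissues. LOC114350973 is leucyl-cystinyl aminopeptidase-like, of a type that breaks down peptide hormones in mammals, and had 1.12, 0.828 and 1.4 FPKM in midgut, against 19.3, 25.6 and 17.8 FPKM in silk gland (log2 fold change -3.36, SE 0.23, adjusted p 1.91e-05).

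Carboxypeptidase N subunit 2 is the regulatory subunit of a mammalian plasma enzyme and has no catalytic site of its own. LOC114360639 of this name had 0.449, 0.614 and 0.26 FPKM in midgut, against 148, 96.1 and 94.5 FPKM in fat body (log2 fold change -6.28, SE 0.25, adjusted p 1.61e-06). The related LOC114353214 had 3.71, 3.68 and 3.3 FPKM in midgut, against 37.4, 16.7 and 11.6 FPKM in fat body (log2 fold change -2.16, SE 0.40, adjusted p 0.00386). LOC114361861, xaa-Pro aminopeptidase 1, was found almost only in fat body among the tissues, with 0.064, 0 and 0.119 FPKM in midgut, against 11.9, 29.5 and 28.3 FPKM in fat body (log2 fold change -4.41, SE 0.36, adjusted p 4.97e-05).

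A further 4 enzymes were detected in all 12 tissue libraries. The cytosolic non-specific dipeptidase LOC114356650 had 87.3, 98.8 and 82.7 FPKM in midgut, against 133, 119 and 97.6 FPKM in hemolymph, 52.7, 86.8 and 57.2 FPKM in fat body and 59.5, 59.6 and 51 FPKM in silk gland, and passed none of the 3 tests. The puromycin-sensitive aminopeptidase LOC114361612 had 38.5, 52.7 and 44.3 FPKM in midgut, against 55.2, 45.1 and 32.2 FPKM in silk gland, and also passed none. Methionine aminopeptidase 2, LOC114353834, had 36.5, 22 and 49.5 FPKM in midgut, against 75.6, 64.6 and 88.1 FPKM in hemolymph (log2 fold change -1.12, SE 0.29, adjusted p 0.0106), a call that was lost without midgut replicate 2 (-0.81, adjusted p 0.0125). Xaa-Pro dipeptidase, LOC114350060, which splits dipeptides that end in proline, had 77.8, 107 and 97.8 FPKM in midgut, against 25.7, 32.7 and 35.3 FPKM in fat body (log2 fold change 1.56, SE 0.22, adjusted p 9.88e-04).

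Through development, the summed level of the 39 digestive members was 28.2, 47.4 and 22.4 FPKM in embryos, 98.2, 616 and 86.5 FPKM in 1st instar, 71, 1323 and 138 FPKM in 3rd instar, 342, 459.6 and 272 FPKM in 5th instar larvae, 166, 191 and 242 FPKM in pupae and 237, 176 and 255 FPKM in adults. On the deposited scale embryos were lowest, and replicate 2 stood far above its group in the 1st and 3rd instars. These are the 2 libraries with the high midgut marker sums, whose part in the values was not tested. The sum of the 48 other members was 279, 299 and 357 FPKM in embryos and 499 to 868 FPKM in all later whole-animal libraries. The effective library size was 2.36 to 2.42 times the recovered fragments in embryos and 0.558 to 0.888 times in 3rd instar larvae. The order of the stages in both sums therefore depends on the scaling.

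**Figure D4:**
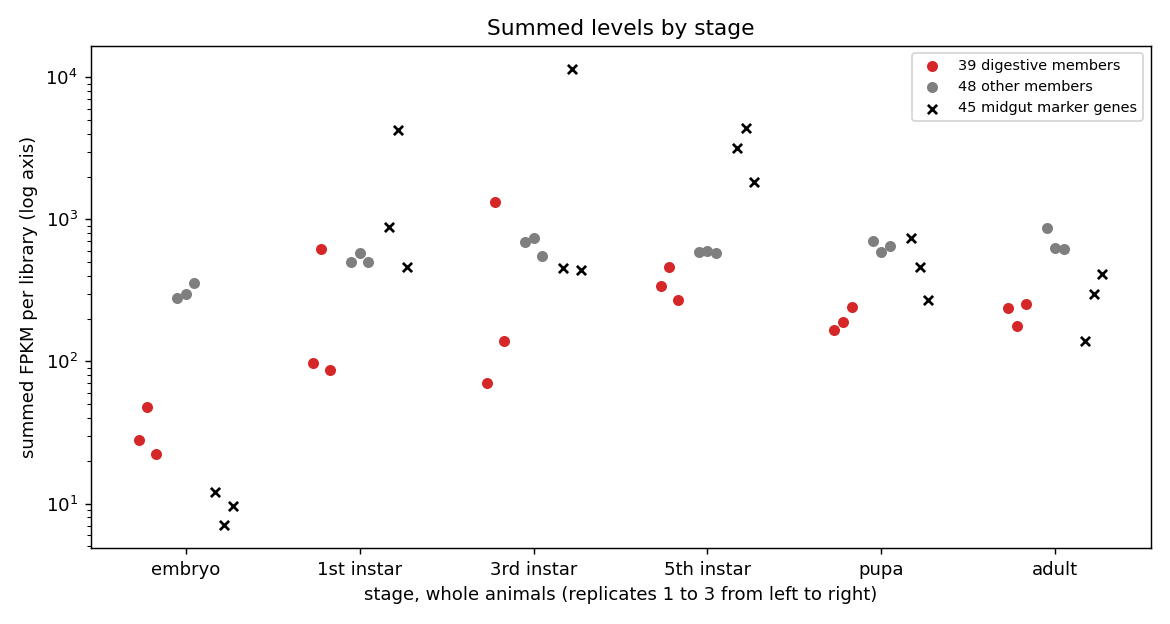
Summed FPKM per library on a log axis at the 6 stages, for the 39 digestive members, the 48 other members and the 45 midgut marker genes (3 points per set and stage, replicates 1 to 3 from left to right). The digestive sum is highest in replicate 2 of the 3rd instar, where the midgut markers also reach 11472 FPKM. The sum of the other members is lowest in embryos on the deposited scale.

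In 1st instar larvae relative to embryos, 26 of 51 members tested rose and 6 fell, where 34.6% of all genes rose and 24.7% fell. The digestive members gave 12 rises and 3 falls among 17, and 12 of the 17 reached 1 FPKM in larvae only. Of the 4 that reached 1 FPKM at both stages, 1 rose and 2 fell. Scaling by the recovered fragments gave 20 rises and 15 falls. With single libraries left out, from 8 (without embryo replicate 2) to 14 (without 1st instar replicate 3) digestive members rose.

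Not all larval rises were in genes with a high level in the dissected 3rd instar midgut. LOC114350764, aminopeptidase N, had 37.7, 50.3 and 45.1 FPKM in 1st instar larvae, against 0.963, 2 and 0.694 FPKM in embryos (log2 fold change 4.39, SE 0.24, adjusted p 5.41e-06). Its 3 libraries of the 1st instar were close together, unlike those of the midgut members, with replicate 2 only slightly higher. LOC114361649, dipeptidase 1-like, of a type that splits dipeptides at the cell membrane in mammals, had 50.2, 39.2 and 70.9 FPKM in 1st instar larvae, against 0.0151, 0.0467 and 0 FPKM in embryos (log2 fold change 5.70, SE 0.23, adjusted p 1.63e-06). Both genes exceeded every dissected tissue in each whole 3rd instar library, which held for 3 members in all. The third was LOC114365757, cytosolic carboxypeptidase 4-like, with 11.3, 5.15 and 4.65 FPKM in whole 3rd instar larvae and at most 3.26 FPKM in any tissue library.

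The midgut row rose with a wide spread. LOC114361315 had 4.78, 88.1 and 2.39 FPKM in 1st instar larvae, against 0.00777, 0.0241 and 0.00755 FPKM in embryos (log2 fold change 3.57, SE 1.12, adjusted p 0.0217), and the call was lost without embryo replicate 2 (adjusted p 0.0545). LOC114359080 had 4, 68.6 and 3.56 FPKM in 1st instar larvae, against 0, 0 and 0.0196 FPKM in embryos (log2 fold change 3.53, SE 0.99, adjusted p 0.0136). LOC114353370 had 10.2, 80 and 5.34 FPKM in 1st instar larvae, against 0, 0 and 0.0395 FPKM in embryos (log2 fold change 4.15, SE 0.86, adjusted p 0.0034). In all 3 genes replicate 2 was more than the other replicates, and no embryo library reached the lowest larval one.

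Among the falls was LOC114361561, carboxypeptidase A1-like, with 0, 0 and 0.0244 FPKM in 1st instar larvae, against 5.58, 30.3 and 4.43 FPKM in embryos (log2 fold change -3.36, SE 0.62, adjusted p 0.00199). LOC114366310 and LOC114361327, the aminopeptidase N-like genes outside the row, were the other 2 digestive members that fell. LOC114366310 had 1.67, 1.43 and 1.68 FPKM in 1st instar larvae, against 7.99, 5.37 and 7.13 FPKM in embryos. LOC114353214, carboxypeptidase N subunit 2-like, rose among the other members, with 21.9, 24.9 and 28.4 FPKM in 1st instar larvae, against 0.738, 1.2 and 1.27 FPKM in embryos (log2 fold change 3.66, SE 0.19, adjusted p 3.64e-06). LOC114360961, carboxypeptidase D, rose as well (log2 fold change 3.48, SE 0.47, adjusted p 4.07e-04).

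In the 3rd relative to the 1st instar, 7 of 54 members rose and 3 fell, with a background of 7.72% and 6.70%. Scaling by the recovered fragments gave 3 rises and 5 falls, and a fit with a block for the replicate number gave 8 rises and 4 falls. Leaving out 1st instar replicates 1 or 3 left 3 and 2 rises. LOC114361649 fell most, to 4.97, 2.01 and 1.28 FPKM in 3rd instar larvae, against 50.2, 39.2 and 70.9 FPKM in the 1st instar (log2 fold change -3.94, SE 0.41, adjusted p 0.0017). LOC114350764 fell to 14.2, 6.86 and 14.9 FPKM in the 3rd instar, against 37.7, 50.3 and 45.1 FPKM in the 1st instar (log2 fold change -1.86, SE 0.31, adjusted p 0.00932), and lost the call without 1st instar replicate 3 (adjusted p 0.0530). LOC114349635 rose to 167, 61.6 and 59.1 FPKM in the 3rd instar, against 10.6, 8.63 and 8.07 FPKM in the 1st instar (log2 fold change 3.10, SE 0.41, adjusted p 0.00409). LOC114364138 rose to 59, 47.8 and 37.2 FPKM, against 12.4, 11.4 and 9.13 FPKM in the 1st instar (log2 fold change 2.02, SE 0.23, adjusted p 0.00249). These last 2 were genes of hemolymph and fat body among the tissues, and the summed hemolymph markers were 94.8 to 137 FPKM in 3rd instar and 3.36 to 35.7 FPKM in 1st instar larvae, whose part was not tested.

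In the 5th relative to the 3rd instar, 6 of 63 members rose and 2 fell, with a background of 6.81% and 4.08%. Of the 26 digestive members, 5 rose and 0 fell (0 also at an unadjusted p under 0.05, with the same fold limit, and 0 with limma-voom). Of these rises 3 were in members that reached 1 FPKM in the 5th instar only, and 2 of the 23 that reached it at both stages rose. Without 3rd instar replicate 2, the library with the high midgut markers, 10 members rose, without either other 3rd instar replicate 3 rose, and without 5th instar replicates 2 or 3 also 3. The 2 falls depended on the settings, with 0 to 1 left when any library was left out, and scaling by the recovered fragments gave 7 rises and 0 falls.

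LOC114363503, the carboxypeptidase B-like gene that passed no tissue test, changed most. It had 154, 81.2 and 68.1 FPKM in 5th instar larvae, against 1.52, 1 and 4.98 FPKM in the 3rd instar (log2 fold change 4.94, SE 0.50, adjusted p 0.00342), and no 3rd instar library came near a 5th instar one. It overlaps an annotated gene of the opposite strand. Another 3 of the rises were in a row of 3 carboxypeptidase genes on NW_021136059.1 between 189723 and 209078, with no other annotated gene between them. LOC114361561 had 4.94, 2.83 and 6.48 FPKM in 5th instar larvae, against 0.0878, 0.378 and 0 FPKM in the 3rd instar (log2 fold change 2.28, SE 0.31, adjusted p 0.00659), a call lost with limma-voom (adjusted p 0.0513). LOC114361560, carboxypeptidase B-like, had 2.55, 4.62 and 3.74 FPKM in 5th instar larvae, against 0.0838, 0.18 and 0 FPKM in the 3rd instar (log2 fold change 2.07, SE 0.25, adjusted p 0.00455). LOC114361577, carboxypeptidase B-like, had 4.54, 9.98 and 6.49 FPKM in 5th instar larvae, against 0.7, 1.67 and 0.55 FPKM in the 3rd instar (log2 fold change 2.01, SE 0.35, adjusted p 0.0145), and lost the call without either 3rd instar replicate 1 or 3, without 5th instar replicates 2 or 3, or with limma-voom. All 3 were at most 0.185 FPKM in the 4 tissues.

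These genes were also detected later. LOC114361577 had 4.54, 9.98 and 6.49 FPKM in 5th instar larvae, 12.2, 14.1 and 11.1 FPKM in pupae and 5.54, 6.55 and 7.28 FPKM in adults. The summed level of 45 sperm marker genes was 19.2 to 33.5 FPKM in 3rd instar larvae, 126 to 181 FPKM in 5th instar larvae, 253 to 357 FPKM in pupae and 174 to 309 FPKM in adults. Of these markers, 10 of the 16 tested rose in the 5th relative to the 3rd instar, where 6.81% of all genes tested rose. Their part in these values was not tested.

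In pupae relative to the 5th instar, falls outnumbered rises. Of the 64 members tested, 5 rose and 21 fell, with a background of 7.82% and 12.4%. The digestive members gave 15 of the falls and 2 of the rises among 27, and of the 18 that reached 1 FPKM at both stages 7 fell and 1 rose. Their median change was -1.58, against 0.03 for all genes tested. Scaling by the recovered fragments gave 22 rises and 14 falls among the members, 13 of these falls in digestive members. Midgut markers moved the same way, with 269 to 744 FPKM in pupae against 1829 to 4391 FPKM in 5th instar larvae, and their part was not tested.

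LOC114359080 had 0.481, 1.4 and 0.509 FPKM in pupae, against 17.6, 50.1 and 12.6 FPKM in 5th instar larvae (log2 fold change -3.74, SE 0.50, adjusted p 0.00343). LOC114361315 had 0.334, 0.282 and 0.0654 FPKM in pupae, against 15.5, 24.4 and 8.71 FPKM in 5th instar larvae (log2 fold change -3.71, SE 0.35, adjusted p 0.00127). LOC114359079 had 0.291, 0.332 and 0.216 FPKM in pupae, against 7.02, 22.3 and 13.2 FPKM in 5th instar larvae (log2 fold change -3.44, SE 0.38, adjusted p 0.00191). No pupal library overlapped a larval one in these 3 genes. LOC114361563 of the aminopeptidase row stayed high in pupae, with 29.5, 42.1 and 33.1 FPKM, against 2.13, 36 and 29.7 FPKM in 5th instar larvae, and did not pass the test (log2 fold change 1.22, SE 0.91, adjusted p 0.339). In the row on NW_021130612.1, the 7 other genes all fell, LOC114361404 not under scaling by the recovered fragments (adjusted p 0.0565) and not without 5th instar replicate 2 or pupal replicates 1 or 3, and LOC114361540 not with all 30 libraries in 1 fit (-2.23, adjusted p 0.0563).

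LOC114351074, zinc carboxypeptidase-like, rose most in pupae. It had 34.3, 51.3 and 70.1 FPKM in pupae, against 0, 0 and 0.228 FPKM in 5th instar larvae (log2 fold change 5.57, SE 0.28, adjusted p 1.75e-04), and was at most 0.169 FPKM in every tissue library, embryo and younger larva. LOC114365491, cytosol aminopeptidase-like, of the leucyl aminopeptidase family, had 21, 32.2 and 14.7 FPKM in pupae, against 2.08, 0.129 and 2.26 FPKM in 5th instar larvae (log2 fold change 3.33, SE 0.48, adjusted p 0.00423). LOC114362897, carboxypeptidase E-like, of the enzyme that matures neuropeptides, had 14.5, 20.1 and 42.5 FPKM in pupae, against 4.63, 4.79 and 3.16 FPKM in 5th instar larvae (log2 fold change 2.24, SE 0.39, adjusted p 0.00773). LOC114360639, carboxypeptidase N subunit 2, rose too (log2 fold change 1.37, SE 0.20, adjusted p 0.00475). The fifth rise was LOC114361560, which lost its call when any of 4 libraries was left out.

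In adults relative to pupae, 14 of 63 members rose and 20 fell, with a background of 21.9% and 25.0%. The digestive members gave 6 rises and 6 falls among 22. Scaling by the recovered fragments gave 12 rises and 30 falls. All 6 digestive rises were in members that reached 1 FPKM in adults only. Digestive is a family name here. Of these members, LOC114362868 and LOC114352517 had no fragment in larval midgut, whereas LOC114358161 was higher there than in all 3 other tissues.

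The adult set lay outside the midgut rows, apart from LOC114358161. On NW_021137083.1, LOC114362867, carboxypeptidase O-like, had 58, 30.5 and 39 FPKM in adults, against 0.277, 0.117 and 0.487 FPKM in pupae (log2 fold change 5.03, SE 0.27, adjusted p 2.20e-05). LOC114362868 on the same scaffold, zinc carboxypeptidase A 1-like, had 43.9, 18.4 and 24.7 FPKM in adults, against 0, 0.242 and 0.0449 FPKM in pupae (log2 fold change 4.69, SE 0.33, adjusted p 5.77e-05). Between them LOC114362873, carboxypeptidase B-like, had 21.8, 18.7 and 26.3 FPKM in adults, against 15.1, 3.64 and 16.4 FPKM in pupae, and did not pass the test (log2 fold change 1.08, SE 0.50, adjusted p 0.0949). LOC114362867 and LOC114362868 thus rose in adults, while LOC114362873 was already detected in pupae. On NW_021137396.1, LOC114363501 had 8.72, 10.4 and 9.88 FPKM in adults, against 0.16, 0 and 0.225 FPKM in pupae (log2 fold change 3.24, SE 0.19, adjusted p 2.84e-05), and LOC114363515, carboxypeptidase A4-like, had 6.38, 1.49 and 4.32 FPKM in adults, against 0.0439, 0.0417 and 0.0928 FPKM in pupae (log2 fold change 2.12, SE 0.38, adjusted p 0.00232). Their neighbour LOC114363503, with its peak in the 5th instar, still had 25.7, 31 and 55.2 FPKM in adults. LOC114352517, zinc carboxypeptidase A 1-like, had 4.17, 2 and 2.01 FPKM in adults. LOC114358161 of the zinc carboxypeptidase row was shared between larval midgut and adults, with 1.86, 7.63 and 6.57 FPKM in adults, against 0, 0.0915 and 0 FPKM in pupae (log2 fold change 2.47, SE 0.41, adjusted p 0.00165).

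**Figure D5:**
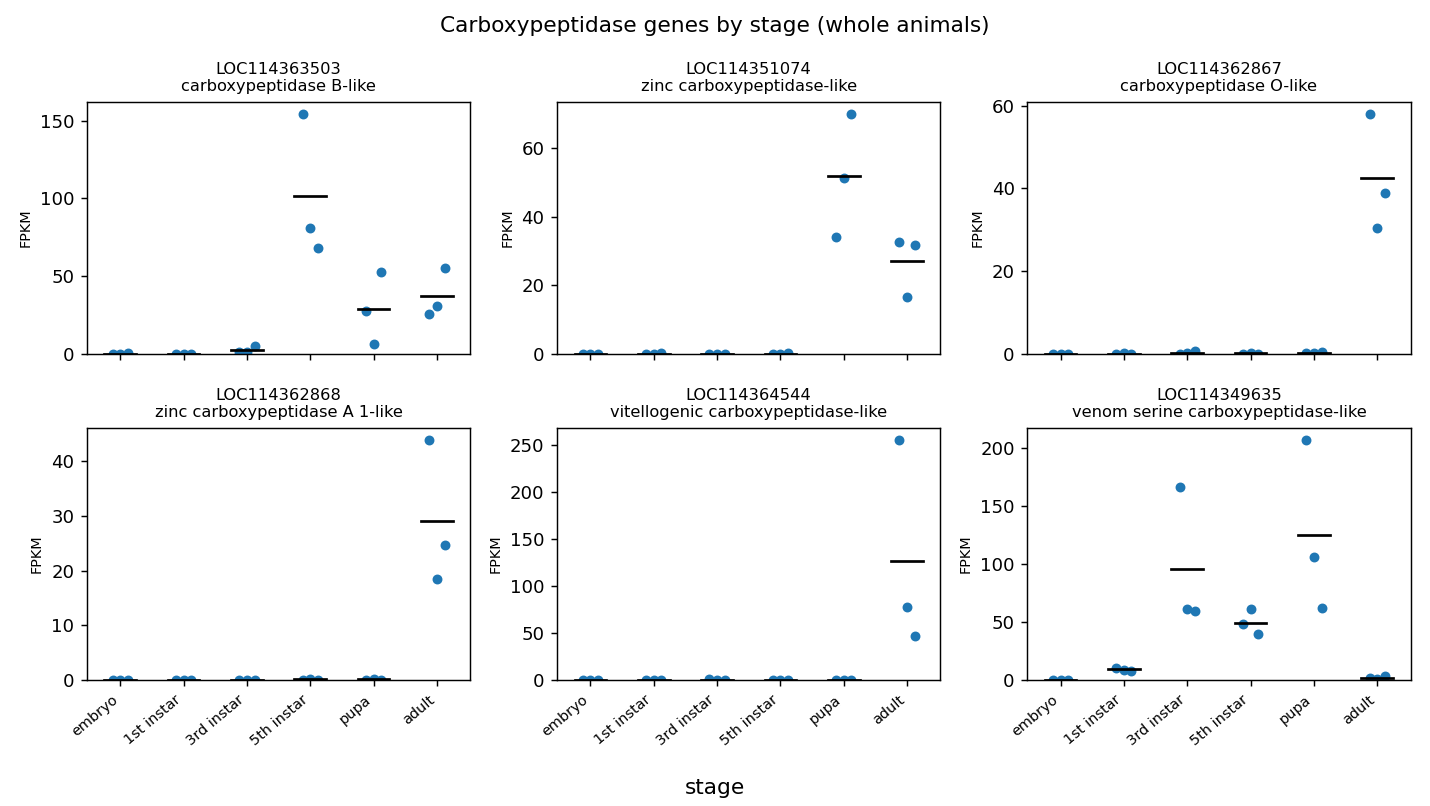
FPKM of 6 carboxypeptidase genes at the 6 stages, in whole animals (points are the 3 libraries, bars their mean, and each panel has its own axis from 0). LOC114363503 peaks in the 5th instar, LOC114351074 appears in pupae, LOC114362867, LOC114362868 and LOC114364544 appear in adults, and LOC114349635 is high from the 3rd instar to the pupa and low in adults.

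Serine carboxypeptidases on NW_021130933.1 differed from each other at the same step. LOC114349568, vitellogenic carboxypeptidase-like, had 47.6, 20.4 and 39.4 FPKM in adults, against 0.179, 0.34 and 0.719 FPKM in pupae (log2 fold change 4.64, SE 0.34, adjusted p 6.81e-05). LOC114349569, venom serine carboxypeptidase-like, had 6.23, 6.56 and 5.78 FPKM in adults, against 0.136, 0.323 and 0.18 FPKM in pupae (log2 fold change 2.57, SE 0.17, adjusted p 5.34e-05). LOC114349635 fell to 2.04, 0.591 and 2.98 FPKM in adults, against 208, 106 and 62.5 FPKM in pupae (log2 fold change -5.39, SE 0.50, adjusted p 1.52e-04). LOC114349569 (759374 to 765393, minus strand) and LOC114349635 (765216 to 771100, plus strand) overlap, and reads from the shared stretch cannot be told apart without strand. The genes nevertheless changed in opposite directions. LOC114364544 on another scaffold, vitellogenic carboxypeptidase-like, had 256, 77.4 and 46.2 FPKM in adults, against 0.0322, 0.276 and 0.0681 FPKM in pupae (log2 fold change 6.46, SE 0.57, adjusted p 1.31e-04), with adult replicate 1 far above the others.

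Among the other adult changes, LOC114354977, carboxypeptidase Q-like, rose to 98.8, 93.5 and 82.5 FPKM in adults, against 11.1, 11.5 and 9.98 FPKM in pupae (log2 fold change 2.96, SE 0.15, adjusted p 1.47e-05). Of the 41 other members tested at this step, 8 rose and 14 fell. LOC114353834, methionine aminopeptidase 2, had 16.3, 12.7 and 12 FPKM in adults, against 39.4, 33.6 and 32.8 FPKM in pupae (log2 fold change -1.31, SE 0.18, adjusted p 7.15e-04). LOC114365886, methionine aminopeptidase 1, had 1.26, 1.82 and 0.216 FPKM in adults, against 7.75, 10.1 and 6.5 FPKM in pupae (log2 fold change -2.19, SE 0.35, adjusted p 0.00139). The third methionine aminopeptidase, the mitochondrial LOC114365752, rose instead (log2 fold change 1.07, SE 0.21, adjusted p 0.0038), a call lost under scaling by the recovered fragments (0.40) and without adult replicate 2 (0.94). LOC114356650, the cytosolic non-specific dipeptidase, fell to 29.1, 19.5 and 22.1 FPKM in adults, against 72.9, 67.7 and 73.4 FPKM in pupae (log2 fold change -1.58, SE 0.18, adjusted p 3.49e-04), and LOC114352896, carboxypeptidase D-like, fell to 0.774, 0.563 and 0.847 FPKM, against 8.94, 6.44 and 8.09 FPKM in pupae (log2 fold change -2.35, SE 0.20, adjusted p 1.27e-04). LOC114363130, probable aminopeptidase NPEPL1, fell as well (log2 fold change -2.50, SE 0.21, adjusted p 1.08e-04).

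Position and profile went together in part. Of the 87 members, 40 lie on 9 scaffolds that hold at least 3 members each, and the members occupy 51 scaffolds in all. The rows on NW_021130612.1, NW_021134470.1 and NW_021133984.1 hold 17 of the 21 digestive members that were higher in midgut than in all 3 tissues. The rows on NW_021136059.1, NW_021137083.1 and NW_021137396.1 hold 0 of them, and 1 of their 9 members could be tested against all 3 tissues. Several of the 17, among them all those on NW_021133984.1, entered the tests only through their midgut level. On NW_021135414.1 the 3 serine carboxypeptidases LOC114360790, LOC114360794 and LOC114360785 were expressed at unlike levels, with means of 185 FPKM in fat body for LOC114360790, and 3.86, 3.01 and 5.87 FPKM for LOC114360794 and 12, 5.8 and 9.13 FPKM for LOC114360785 in pupae, their highest group.

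In the gut, trypsins and chymotrypsins are endopeptidases that leave peptides for enzymes of the digestive families. The list below was taken by name, and whether each of its genes has this role was not tested. Of 80 gene models described as trypsin or chymotrypsin, 34 of 36 tested were higher in midgut than in hemolymph and 1 lower, 33 of 36 higher than in fat body, and 34 of 38 higher than in silk gland and 2 lower. The 80 include the alkaline trypsins and chymotrypsins of the midgut markers, so these tissue counts repeat in part the check of the midgut label. In pupae relative to the 5th instar 18 of 32 fell and 2 rose, where 12.4% of all genes tested fell and 7.82% rose. In adults relative to pupae, 23 of 46 rose and 10 fell, where 21.9% of all genes tested rose and 25.0% fell. Alkaline phosphatases, which share the brush border and toxin binding with aminopeptidase N, were higher in midgut in 3 of 5 tests against hemolymph and lower in 1, higher in 4 of 4 against fat body, and higher in 4 of 5 against silk gland and lower in 1. Transporters of peptides and amino acids were mixed, with 14 of 21 higher and 3 lower than in hemolymph, 13 of 23 higher and 7 lower than in fat body, and 9 of 28 higher and 11 lower than in silk gland. Of all genes tested, 25.3%, 18.3% and 20.8% were higher in midgut than in hemolymph, fat body and silk gland. The shares lower were 17.9%, 16.0% and 16.6%. Genes of these lists that are low outside midgut could also enter the tests only through their midgut level.

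The members with little or no signal were spread over the families. The 6 members that stayed under a mean of 1 FPKM in every group were LOC114362805, LOC114358159, LOC114365049 (cytosol aminopeptidase-like), LOC114362506 (carboxypeptidase N subunit 2-like), LOC114353847 (dipeptidase 1-like) and LOC114354133 (putative dipeptidase). None of them can be called absent at this depth, LOC114362805 with its 0 fragments included, since the sources used here do not say how reads shared by copies were counted. LOC114356040, dipeptidyl aminopeptidase-like protein 6, whose mammalian counterpart has no enzyme activity and is a partner of potassium channels, had 3.08, 0.629 and 1.1 FPKM in midgut, against 4.19, 6.58 and 0.162 FPKM in fat body and 3.77, 0.338 and 4.5 FPKM in silk gland, with wide and overlapping spreads. In all, 16 members overlap another annotated gene model, among them LOC114353218, LOC114353229, LOC114360426, LOC114360790, LOC114360785, LOC114360961 and LOC114365757, whose reads in the shared parts cannot be told apart.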

How the data were processed

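RNA of 18 whole-animal and 12 tissue libraries was sequenced. Per the methods, reads were cleaned by fastp, mapped by HISAT2 2.0.5 (also named in the submitters' processing notes) to assembly ASM419383v1 and quantified by RSEM. The notes name a mouse build, which was not used. The authors deposited 1 table of FPKM values, whose header names no unit. The unit was found from the values: each value times its gene length was a whole multiple of an amount fixed for the library (100% of values up to 200 fragments, within a tolerance of 0.02), which gave the fragments per gene. RSEM estimates need not be whole, so the program that made these values is uncertain. The sources used here do not give strand use or the treatment of reads shared by copies. The authors' own tests were not used.

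Members and groups were chosen from gene descriptions, and members, lists and tests were chosen with earlier results of these data known. Genes that reached 1 FPKM in 3 or more libraries of the 6 compared were tested with limma-trend on log2(FPKM + 1), p-values adjusted by Benjamini-Hochberg over all genes tested. Genes named were the 8 highest in midgut of each digestive family, the 2 highest of each other family, the 3 largest rises and falls per comparison and members that share a scaffold with at least 2 others; all else named was chosen after its values were seen. Alternatives were a pseudocount of 0.1, no filter, all 30 libraries in 1 fit, scaling by recovered fragments, medians of ratios, limma-voom on recovered fragments, the replicate number as a block and leaving out each library. The labels do not say whether replicate numbers link samples of different groups. Between the 1st and 3rd instars, deviations from the group means correlated by 0.38, 0.67 and 0.14 across genes for replicates 1, 2 and 3. In no other comparison did all 3 correlations exceed 0.1. Replicate 2 had the high midgut markers in both instars, so that these correlations do not establish a pairing. The test was tried on simulated data. No pair of libraries agreed within sampling noise. The work used R 4.3.3 with limma 3.58.1 and Python 3.11.15 with numpy 2.4.6, pandas 2.3.3 and matplotlib 3.10.9.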

Additional observations from a re-analysis of the deposited data

How the results depend on the processing

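Of 231 calls of members, 177 held under all alternatives, and across the alternatives 2809 single outcomes kept direction and call, 192 lost the call and 0 reversed. Scaling by the recovered fragments moved the number of members lower in midgut than in silk gland to 6 from 11, the falls in the 1st instar relative to the embryo to 15 from 6, the rises and falls in the 3rd relative to the 1st instar to 3 and 5 from 7 and 3, the falls in the 5th relative to the 3rd instar to 0 from 2 and the pupal rises to 22 from 5. The falls in the 5th relative to the 3rd instar were also 1 with a pseudocount of 0.1, 0 without the filter, 1 with limma-voom and 0 with the replicate block. Limma-voom gave 3 rises there, against 6. With 1 library left out, the 3rd relative to the 1st instar gave 2 to 7 rises and 2 to 3 falls, and the 5th relative to the 3rd instar 3 to 10 rises and 0 to 1 falls. The replicate block gave 8 rises and 4 falls in the 3rd relative to the 1st instar, where a pairing by number was not established. The causes were not tested. With 3 pools per group and a filter at 1 FPKM, weak members could not be judged.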
